A study of Mus musculus with 12 samples.

Results

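Somatostatin, its close relative cortistatin and their receptors were followed in the mouse striatum after dopamine depletion and L-DOPA. The 7 genes were taken by symbol: the peptide precursors *Sst* and *Cort* and the receptors *Sstr1*, *Sstr2*, *Sstr3*, *Sstr4* and *Sstr5*. They hold 24 of the 189364 transcripts with a gene name, or 7 of 52169 gene symbols, and each gene is described by its transcript with the highest mean level over the 12 libraries. The family was chosen by the values of *Sstr2*, whose lesion effect was already known to change with repeated L-DOPA in these libraries, so the differences of *Sstr2* are given as a description and carry no test. All 7 genes were found in the table.

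RNA sequencing was done on striatal punches of C57BL/6J mice, which the study's methods describe as female. Every mouse had received 3 µg of the dopamine neuron toxin 6-OHDA in the right medial forebrain bundle, with desipramine given beforehand to spare noradrenergic neurons, and had recovered for 2 weeks. All groups also received L-DOPA, the precursor of dopamine, at 10 mg/kg together with 7.5 mg/kg benserazide, an inhibitor of its breakdown outside the brain, and were killed 1 h after the last dose. The 4 groups of 3 libraries were acute unlesioned and acute lesioned (1 injection), and chronic unlesioned and chronic lesioned (daily injections for 9 days). The unlesioned libraries came from the left hemisphere and therefore also saw L-DOPA, and no saline-treated library was analysed here. By the study's methods L-DOPA began after the recovery, so that the chronic groups were also killed later after the lesion than the acute ones. Number of doses and time since the lesion therefore cannot be told apart between chronic and acute L-DOPA. The labels count 12 mice with 3 in each condition, whereas the study's methods use the unlesioned hemisphere as a control within the animal, so that the origin of equally numbered libraries is not settled by these sources. Libraries of 1 group were taken as separate samples, and the p-values measure the spread between them.

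Somatostatin is released in the striatum by a sparse class of interneurons that also make neuropeptide Y and nitric oxide synthase. It and cortistatin act on G-protein coupled receptors that inhibit adenylyl cyclase, open inwardly rectifying potassium channels and close calcium channels, so that they generally dampen the firing and the transmitter release of the cells that carry them. The receptors fall into a subgroup of *Sstr2*, *Sstr3* and *Sstr5* and a subgroup of *Sstr1* and *Sstr4*, which differ in how they bind synthetic analogs. The somatostatin gene is a textbook target of the cAMP-responsive factor CREB.

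The ends of both peptide precursors are shown because *Sst* and *Cort* are ligands of the same receptors. The last 14 codons, which encode the short form of somatostatin and the matching end of cortistatin, were read from the mouse genome build NCBIM37 (mm9). The *Sst* stretch lies in the second exon at chr16:23889818-23889859 and the *Cort* stretch at chr4:148499376-148499417, both on the minus strand. Capitals mark the codons of the Phe-Trp-Lys-Thr core by which both peptides are recognised.
Sst: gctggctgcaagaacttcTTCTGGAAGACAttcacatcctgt
Cort: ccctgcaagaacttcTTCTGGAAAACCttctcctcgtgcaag
Over the 13 codons that align, 31 of 39 bases were identical, and 2 of the 4 core codons had the same bases.

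The 250 bases before the RefSeq start of *Sst*, *Sstr2* and *Sstr4* are shown because these genes were higher in the chronic lesioned striatum. They come from the RefSeq promoter table of build GRCm38.p6 and were placed in mm9 by an exact match, at chr16:23890931-23891180 (minus strand) for *Sst*, chr11:113480391-113480640 (plus strand) for *Sstr2* and chr2:148220863-148221112 (plus strand) for *Sstr4*. Capitals mark the full cAMP response element TGACGTCA, the site known to bind CREB.
Sst: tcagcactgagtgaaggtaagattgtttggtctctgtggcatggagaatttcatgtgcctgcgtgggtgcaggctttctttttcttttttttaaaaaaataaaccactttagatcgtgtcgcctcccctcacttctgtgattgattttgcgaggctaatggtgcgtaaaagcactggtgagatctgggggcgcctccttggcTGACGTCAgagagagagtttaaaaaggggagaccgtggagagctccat
Sstr2: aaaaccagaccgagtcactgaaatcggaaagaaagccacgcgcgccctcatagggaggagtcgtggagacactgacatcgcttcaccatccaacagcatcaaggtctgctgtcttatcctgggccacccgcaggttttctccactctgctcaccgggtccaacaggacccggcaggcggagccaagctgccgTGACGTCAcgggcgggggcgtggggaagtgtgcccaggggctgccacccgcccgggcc
Sstr4: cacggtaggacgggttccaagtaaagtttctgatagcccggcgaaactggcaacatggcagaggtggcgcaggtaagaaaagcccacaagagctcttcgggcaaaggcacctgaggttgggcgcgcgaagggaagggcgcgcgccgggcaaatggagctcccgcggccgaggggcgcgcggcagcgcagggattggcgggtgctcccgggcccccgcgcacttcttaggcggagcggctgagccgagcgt
The element lay 48 to 41 bases before the start of *Sst* and 58 to 51 bases before the start of *Sstr2*. Windows from 250 bases before to 50 bases after the start held it in 507 of 27025 RefSeq promoters (1.88%), searched on both strands. The window of *Sstr4* held neither the full element nor its half-site TGACG (21.0% of promoters), the AP-1 site TGANTCA (7.93%) or the NBRE AAAGGTCA (1.46%), where the full element contains the half-site. The window of *Cort* held a half-site and no full element, and so did 1 of the 2 windows of *Sstr3*. *Sstr1* and *Sstr5* had no entry in that table. A match of letters is a description of the sequence and was not tested as a binding site.

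The libraries held between 87695043 and 173116525 counts over transcripts with a gene name, so that 3 counts correspond to 0.0171 to 0.0347 CPM (counts scaled to a library of 1000000 by edgeR's TMM factors). The tissue label was checked against markers of medium spiny neurons, the main striatal cell type. The 6 markers used here, led by *Ppp1r1b*, *Pde10a* and *Rgs9*, summed to between 842 and 1303 CPM in every library. The 9 markers of cortical glutamatergic neurons, led by *Slc17a7*, *Cux2* and *Tbr1*, summed to 4.93 to 47.2 CPM and varied within each group. The 4 markers of choroid plexus summed to 477 CPM in chronic unlesioned replicate 2, nearly all of it *Ttr*, and to 3.68 to 11.6 CPM in the other 11 libraries. The cell bodies of the lesioned neurons lie in the midbrain, and their loss was not measured in these punches.

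Per length, the ligand stood far above its receptors. *Sst* averaged 59.3 ± 4.3 CPM per kb in the acute unlesioned and 85.7 ± 7.0 CPM per kb in the chronic lesioned group (SD, n = 3). In both unlesioned groups *Sstr4* was the leading receptor transcript, with 0.774 ± 0.030 CPM per kb after acute and 0.706 ± 0.082 after chronic L-DOPA, and *Sstr2* followed with 0.556 ± 0.216 and 0.656 ± 0.376, ranges that overlapped those of *Sstr4*. *Sstr1* came next in the acute unlesioned group with 0.237 ± 0.033 CPM per kb and overlapped none of its neighbours. *Cort*, *Sstr5* and *Sstr3* followed there at 0.129 to 0.0918 CPM per kb with overlapping ranges. In the acute lesioned group *Sstr2* (0.599 ± 0.082 CPM per kb) stood above *Sstr4* (0.411 ± 0.073) without overlap. In the chronic lesioned group the order was *Sst*, *Sstr2* (13.2 ± 1.2 CPM per kb), *Sstr4* (1.81 ± 0.08) and *Sstr1* (0.361 ± 0.064), again without overlap, and then *Sstr3*, *Cort* and *Sstr5*, each overlapping its neighbour.

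**Figure D1:**
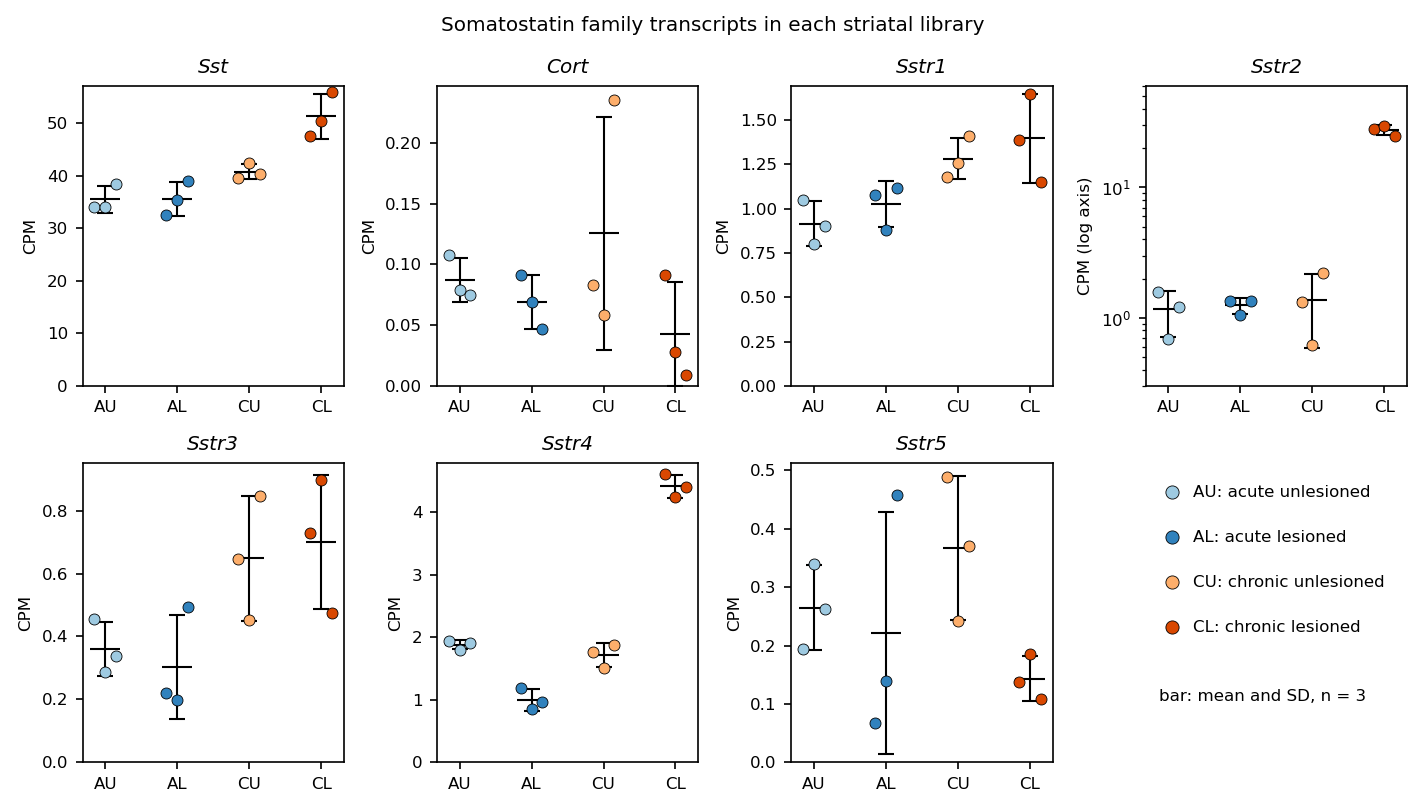
CPM (vertical axes, logarithmic for *Sstr2* only) of the 7 genes in each of the 12 libraries, by group on the horizontal axes (AU, acute unlesioned; AL, acute lesioned; CU, chronic unlesioned; CL, chronic lesioned), with the mean and SD of 3 libraries as bars. *Sstr2* lay between 24.8 and 29.5 CPM in the chronic lesioned group and at or under 2.19 elsewhere, while *Sstr4* was lowest in the acute lesioned and highest in the chronic lesioned group.

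In all, 5 comparisons were made across all transcripts with edgeR, with p-values adjusted over all transcripts tested and a call at an adjusted p under 0.05. Between lesioned and unlesioned striatum after acute L-DOPA, 1 of the 7 members was called, *Sstr4*, which was lower, against 15.3% of 20402 genes (8.16% higher and 7.16% lower). After chronic L-DOPA, 4 of the 6 members tested were called, *Sst*, *Sstr2* and *Sstr4* higher and *Sstr5* lower, against 13.7% of 19742 genes (8.46% higher and 5.20% lower). Without chronic unlesioned replicate 1 or 3, or chronic lesioned replicate 3, this count was 2. Over all transcripts these refits called 9707, 9137 and 9410, in that order, against 15295 in the main fit. Chronic against acute L-DOPA in the lesioned striatum gave 4 of 6 members, *Sst*, *Sstr2*, *Sstr3* and *Sstr4*, all higher, against 25.6% of 19790 genes (12.5% higher and 13.1% lower). In the unlesioned striatum the same comparison called 0 of 7 members by edgeR and 0 by DESeq2, against 3.07% of 20290 genes by edgeR (1.07% higher and 1.99% lower), with 3 members at an unadjusted p under 0.05. The change of the lesion effect between acute and chronic L-DOPA, tested as an interaction over all 12 libraries, was called for 2 of 7 members, *Sstr2* and *Sstr4*, against 5.10% of 20682 genes (3.53% higher and 1.56% lower). *Sstr2* was the reason for choosing the family, so nothing is read from the counts that include it.

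The median log2 fold change of the members tested was -0.25 for the acute lesion effect (0.02 over all genes), 0.22 for the chronic lesion effect (-0.01), 0.86 between chronic and acute L-DOPA in the lesioned striatum (-0.02) and 0.47 in the unlesioned striatum (-0.0043). Without *Sstr2*, whose values chose the family, these medians were -0.26, 0.12, 0.53 and 0.48, and nothing is read from either set. The comparisons share libraries, since each group entered 3 of them. *Cort* had too few counts to be tested in both comparisons that involve the chronic lesioned group directly.

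**Figure D2:**
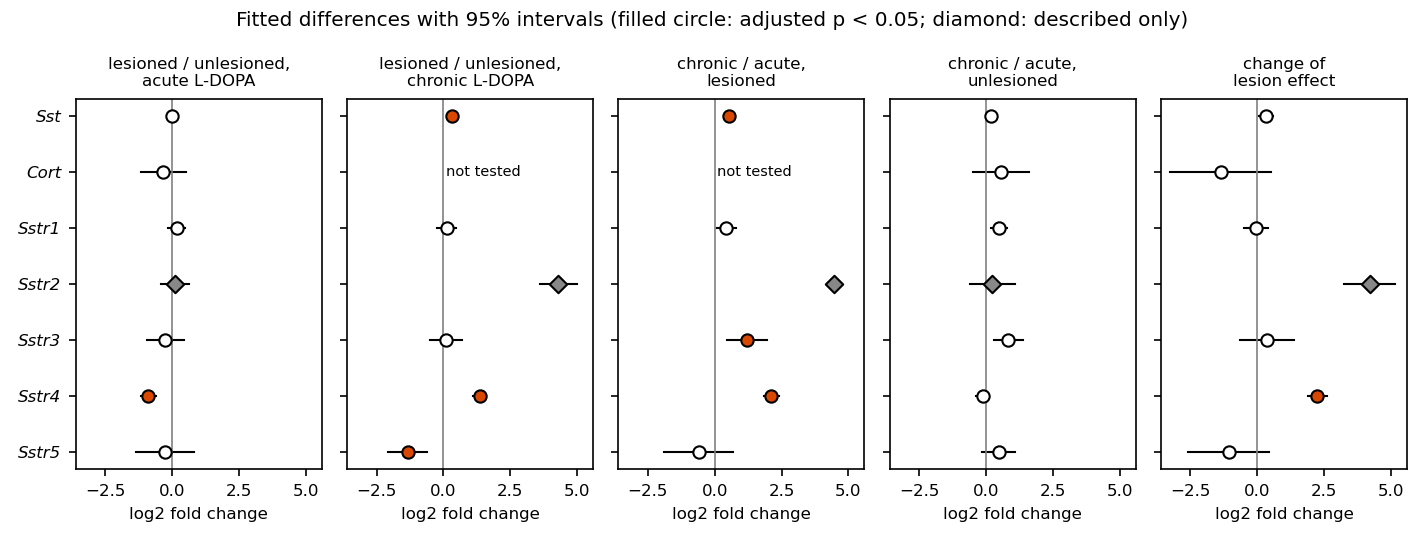
Log2 fold change (horizontal axes) of each member (rows) in the 5 comparisons (panels), with 95% intervals from the edgeR fit; filled circles passed an adjusted p under 0.05, open circles did not, and the diamonds of *Sstr2* are descriptive. *Sstr4* lay at -0.89 after acute and at 1.36 after chronic L-DOPA, and no member passed between chronic and acute L-DOPA in the unlesioned striatum.

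*Sst*, on chr16:23889667-23890930, was the most abundant member. It measured 34.1, 34.0 and 38.5 CPM in the acute unlesioned and 32.5, 35.3 and 39.0 CPM in the acute lesioned libraries. It measured 39.6, 42.5 and 40.3 CPM in the chronic unlesioned and 47.6, 50.4 and 55.9 CPM in the chronic lesioned libraries. Both acute groups overlapped over nearly their whole range, and the 3 chronic lesioned libraries lay above all others.

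The acute lesion effect on *Sst* was 0.01 on the log2 scale (SE 0.08, 95% interval -0.16 to 0.17). After chronic L-DOPA *Sst* rose 1.26-fold in the lesioned striatum (log2 fold change 0.33, SE 0.08, edgeR adjusted p = 0.0282). That call was lost without chronic lesioned replicate 3 (0.27, adjusted p = 0.103 in the same edgeR fit), chronic unlesioned replicate 1 (0.31, adjusted p = 0.104) or chronic unlesioned replicate 3 (0.32, adjusted p = 0.0938). Against acute L-DOPA in the lesioned striatum *Sst* rose 1.44-fold (log2 0.53, SE 0.09, edgeR adjusted p = 0.00251), and it passed in all 13 alternatives. In the unlesioned striatum the same comparison gave 0.20 (SE 0.07, edgeR adjusted p = 0.145). The change of the lesion effect on *Sst* was 0.33 (SE 0.12, edgeR adjusted p = 0.135), and in the fit with a replicate block it was 0.33 (SE 0.08, edgeR adjusted p = 0.0203). In tissue, fewer cells that make a transcript and less of it per cell cannot be told apart.

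The other markers of the somatostatin interneuron were measured beside *Sst*. Their 6 genes summed to 43.0 to 46.3 CPM in the chronic unlesioned and 46.7 to 49.7 CPM in the chronic lesioned libraries, and to 42.3 to 45.1 and 45.9 to 49.8 CPM in the acute groups. In the chronic groups the mean of *Npy* was 11.8 CPM (unlesioned) and 20.7 CPM (lesioned), and that of *Satb1* 3.81 and 4.10. The means of *Nos1* (13.6 and 9.37), *Tacr1* (9.05 and 8.75), *Lhx6* (5.57 and 4.58) and *Chodl* (0.347 and 0.272) were lower on the lesioned side. *Npy*, the neuropeptide made by the same cells, measured 11.1 to 12.6 CPM in the chronic unlesioned and 19.3 to 22.9 CPM in the chronic lesioned libraries and rose (log2 0.81, SE 0.09, edgeR adjusted p = 0.000224). The study's authors propose that a rise of NPY under L-DOPA may occur in medium spiny neurons, although naive mice express it mainly in interneurons. *Nos1*, the nitric oxide synthase of the somatostatin interneurons, measured 12.3 to 15.9 CPM in the chronic unlesioned and 9.12 to 9.61 CPM in the chronic lesioned libraries. It fell (log2 -0.53, SE 0.10, edgeR adjusted p = 0.00775). The other 4 did not pass in the chronic lesion effect, although *Lhx6* fell with the replicate block (-0.28, edgeR adjusted p = 0.0236): *Lhx6* and *Satb1*, transcription factors of these interneurons, *Chodl*, and the substance P receptor *Tacr1*. Of all genes, 8.46% rose and 5.20% fell in this comparison, and 12.8% and 11.4% with the block. *Npy* and *Nos1* also passed the interaction, at 0.65 (SE 0.11) and -0.58 (SE 0.13), with edgeR adjusted p of 0.00199 and 0.0178, beside 5.10% of all genes called. With the replicate block *Lhx6* passed it as well (-0.34, edgeR adjusted p = 0.0344), beside 13.4% of all genes. Between chronic and acute L-DOPA in the lesioned striatum 1 of the 6 rose and 3 fell, beside 12.5% and 13.1% of all genes. *Npy* rose by 0.75 (SE 0.08, edgeR adjusted p = 0.000189), while *Lhx6* (-0.41, SE 0.10, edgeR adjusted p = 0.0146), *Nos1* (-0.52, SE 0.08, edgeR adjusted p = 0.00106) and *Tacr1* (-0.31, SE 0.10, edgeR adjusted p = 0.0395) fell. Whether the number of these interneurons had a part in the values of *Sst* was not tested.

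*Cort*, which encodes cortistatin and lies at chr4:148499143-148500872, was close to the detection limit, with 1 to 35 counts per library. Its highest value, 0.235 CPM from 35 counts, was in chronic unlesioned replicate 3, which also had the highest sum of cortical markers (47.2 CPM). Cortistatin is known mainly from cortical interneurons, and the part of cortex in this value was not tested. In the chronic lesioned group, 1 library held 8 counts and the others 3 and 1. The acute lesion effect was -0.33 (SE 0.38, 95% interval -1.16 to 0.50), a difference not detectable at this depth.

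*Sstr2* encodes the receptor that is the main target of the analog octreotide. Its leading transcript spans chr11:113480656-113487319 on the plus strand. It measured 1.58, 0.684 and 1.22 CPM in the acute unlesioned and 1.35, 1.05 and 1.35 CPM in the acute lesioned libraries. It measured 1.31, 0.618 and 2.19 CPM in the chronic unlesioned and 28.3, 29.5 and 24.8 CPM in the chronic lesioned libraries. The first 3 groups overlapped, and the chronic lesioned libraries held at least 2484 counts each, where the highest of the other 9 held 325.

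As a description, *Sstr2* was 19.8-fold higher in the lesioned than the unlesioned striatum after chronic L-DOPA (log2 4.30, SE 0.31) and 21.8-fold higher than on the lesioned side after acute L-DOPA (log2 4.45, SE 0.12). The acute lesion effect was 0.11 (SE 0.23, 95% interval -0.40 to 0.62), and chronic against acute L-DOPA in the unlesioned striatum gave 0.24 (SE 0.37, 95% interval -0.58 to 1.07). The change of the lesion effect was 4.20 (SE 0.45). Leaving out 1 library at a time kept the chronic lesion effect between 3.96 and 4.85.

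The 4 *Sstr2* transcripts in the table overlap in the genome and differed by 4.26 to 4.31 on the log2 scale in the chronic lesion effect. The leading one is annotated in GENCODE as a target of nonsense-mediated decay. The RefSeq coding forms NM_009217 and NM_001042606 measured 12.6 ± 1.0 and 13.4 ± 1.2 CPM per kb in the chronic lesioned group (SD, n = 3), beside 0.627 ± 0.372 and 0.680 ± 0.399 in the chronic unlesioned group. How reads of overlapping transcripts were assigned is not given in the sources used here, and the counts do not tell which form carried the difference.

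The *Sstr2* locus lies within introns of *Slc39a11*, a zinc transporter gene on the minus strand. The table lists 12 *Slc39a11* transcripts, of which 5 span *Sstr2*. No GENCODE exon of *Slc39a11* lies within *Sstr2*, and the nearest is 5863 bases away. The leading *Slc39a11* transcript, which ends before *Sstr2*, measured 3.52 to 3.91 CPM in the chronic unlesioned and 4.34 to 5.32 CPM in the chronic lesioned libraries (log2 0.35, SE 0.10, edgeR adjusted p = 0.0489). AK165545, the most abundant of the spanning forms, differed by 0.32 (edgeR adjusted p = 0.0710). Whether the counting used the strand is not given in the sources used here.

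The cortical marker sums varied between libraries beside *Sstr2*. In the acute unlesioned libraries the markers summed to 34.5, 17.0 and 16.4 CPM beside 1.58, 0.684 and 1.22 CPM of *Sstr2*, and in the acute lesioned ones to 20.1, 5.94 and 6.00 CPM beside 1.35, 1.05 and 1.35 CPM. In the chronic unlesioned libraries they summed to 28.9, 9.16 and 47.2 CPM beside 1.31, 0.618 and 2.19 CPM of *Sstr2*, and in the chronic lesioned ones to 26.9, 5.87 and 4.93 CPM beside 28.3, 29.5 and 24.8 CPM. The sum was lower on the lesioned side in all 6 equally numbered pairs. The 8 cortical markers tested had a median chronic lesion effect of -1.58, and 0 passed by edgeR or DESeq2 (2 at an unadjusted edgeR p under 0.05), beside 13.7% of all genes. With the replicate number as a block, 5 of these 8 fell, beside 11.4% of all genes that fell in that fit. In the acute lesion effect 7 of 9 fell and 1 rose with the block, beside 11.8% and 13.2% of all genes. Without the block 2 fell and 1 rose there, beside 7.16% and 8.16%. The part of cortical tissue in the values of *Sstr2* was not tested.

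**Figure D3:**
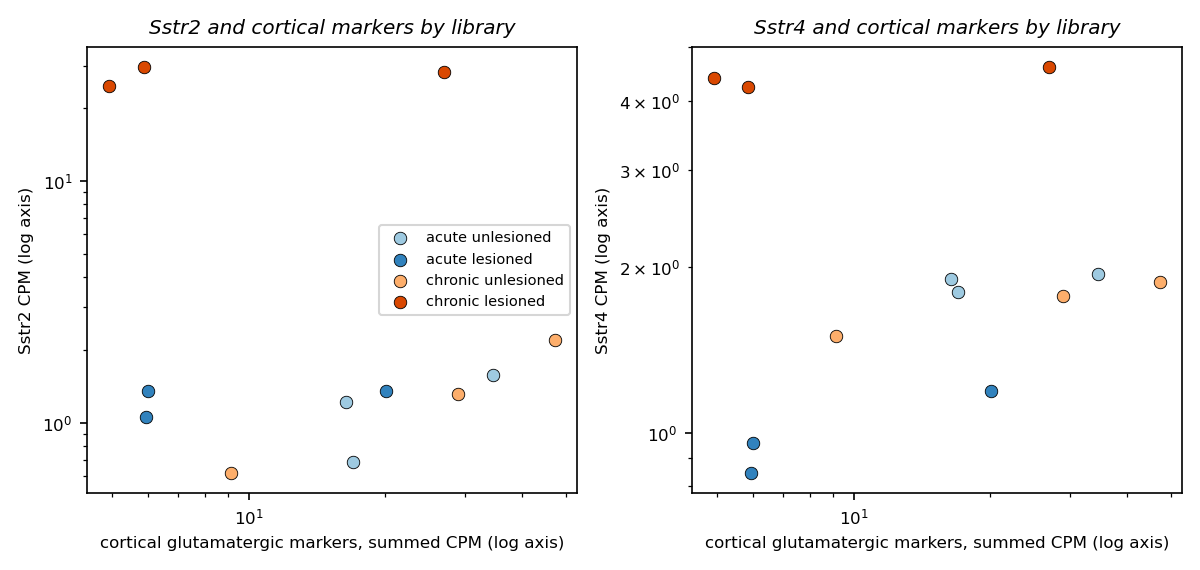
*Sstr2* (left) and *Sstr4* (right) in CPM against the summed CPM of 9 cortical glutamatergic markers, both axes logarithmic, with 1 point per library coloured by group. The chronic lesioned libraries lie above the rest at marker sums from 4.93 to 26.9 CPM.

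*Sstr4*, at chr2:148221080-148226679, was the member whose lesion effect passed the test with opposite signs after acute and chronic L-DOPA. It measured 1.94, 1.80 and 1.90 CPM in the acute unlesioned and 1.19, 0.845 and 0.960 CPM in the acute lesioned libraries, without overlap. It measured 1.77, 1.50 and 1.88 CPM in the chronic unlesioned and 4.60, 4.24 and 4.39 CPM in the chronic lesioned libraries, again without overlap. The chronic lesioned libraries were the highest of all and the acute lesioned ones the lowest.

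*Sstr4* fell 1.85-fold on the lesioned side after acute L-DOPA (log2 -0.89, SE 0.13, edgeR adjusted p = 0.000775) and rose 2.56-fold after chronic L-DOPA (log2 1.36, SE 0.11, edgeR adjusted p = 2.39e-05). In the lesioned striatum it was 4.36-fold higher after chronic than after acute L-DOPA (log2 2.12, SE 0.13, edgeR adjusted p = 2.25e-06). In the unlesioned striatum that comparison gave -0.13 (SE 0.11, 95% interval -0.37 to 0.11). The change of the lesion effect was 2.25 (SE 0.17, edgeR adjusted p = 1.42e-06). All 4 *Sstr4* transcripts passed in the same direction in each of these tests apart from the unlesioned comparison, but transcripts of a gene overlap and are not independent. The acute and chronic lesion effects, the lesioned comparison and the interaction also passed in every alternative run.

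The acute fall and the chronic rise of *Sstr4* stood beside changes in markers of medium spiny neurons, the striatal output cells, which carry either the D1 or the D2 dopamine receptor. Of 6 D1 markers 5 fell and 1 rose after acute L-DOPA, and 2 rose and 1 fell after chronic L-DOPA. Of all genes, 8.16% rose and 7.16% fell in the first and 8.46% rose and 5.20% fell in the second of these comparisons. *Pdyn*, the dynorphin precursor, measured 17.4 to 19.1 CPM in the acute lesioned and 178 to 194 CPM in the chronic lesioned libraries, against 24.8 to 39.3 CPM in the chronic unlesioned ones. *Drd1a*, the receptor itself, fell in both, by 2.30 (SE 0.10) and 1.32 (SE 0.13) on the log2 scale, while *Tac1*, the substance P precursor, rose in both, by 0.89 (SE 0.07) and 0.64 (SE 0.15). The markers summed to 134 to 148 CPM in the acute lesioned, 290 to 337 CPM in the chronic lesioned and 155 to 196 CPM in both unlesioned groups. Without *Pdyn* the other 5 summed to 115 to 130 CPM in the acute lesioned and 109 to 145 CPM in the chronic lesioned group, against 135 to 141 and 131 to 162 CPM in the matching unlesioned groups. Markers of other spiny neurons were called after acute L-DOPA as well. Of 6 markers of both kinds 5 fell, by 0.36 to 0.48 on the log2 scale (*Bcl11b*, *Foxp1*, *Pde10a*, *Rarb* and *Rgs9*), and of 6 D2 markers 5 rose and *Gpr52* fell. After chronic L-DOPA 0 of the 6 markers of both kinds passed by edgeR (1 at an unadjusted p under 0.05) and 1 by DESeq2. With the replicate block *Ppp1r1b* fell there (-0.37, edgeR adjusted p = 0.00588), and of the D1 markers 2 rose and 3 fell. Of all genes, 12.8% rose and 11.4% fell in that fit. Which cells carried *Sstr4* was not measured, and their part in the result was not tested.

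*Sstr1*, at chr12:59312791-59317023, measured 0.800 to 1.05 CPM in the acute unlesioned, 0.880 to 1.12 in the acute lesioned, 1.18 to 1.41 in the chronic unlesioned and 1.15 to 1.65 CPM in the chronic lesioned group. The lesioned and unlesioned libraries overlapped at both times, and every chronic library lay above every acute one. The lesion effects were 0.17 (SE 0.14) after acute and 0.12 (SE 0.15) after chronic L-DOPA. Chronic against acute L-DOPA gave 0.44 (SE 0.16, edgeR adjusted p = 0.0721) in the lesioned and 0.48 (SE 0.14, edgeR adjusted p = 0.0811) in the unlesioned striatum, neither past the threshold. The former passed without chronic lesioned replicate 3 (0.56, edgeR adjusted p = 0.0392) and when all 12 libraries shared a fit (0.44, edgeR adjusted p = 0.0497).

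*Sstr3*, at chr15:78367445-78374775, encodes a receptor best known from neuronal primary cilia. It measured 0.288 to 0.456 CPM in the acute unlesioned and 0.197 to 0.494 CPM in the acute lesioned libraries, against 0.451 to 0.847 and 0.474 to 0.898 CPM in the chronic groups. In the lesioned striatum it rose 2.29-fold between acute and chronic L-DOPA (log2 1.20, SE 0.34, edgeR adjusted p = 0.0275), although acute lesioned replicate 3 (0.494 CPM) lay above the lowest chronic library (0.474 CPM). The call was lost in 6 of 13 alternatives: with a replicate block (1.20, edgeR adjusted p = 0.0582), without acute lesioned replicate 1 (0.98) or 2 (1.00), without chronic lesioned replicate 1 (1.17) or 2 (0.97), and when all transcripts of the gene were summed (edgeR adjusted p = 0.0586). In the unlesioned striatum the difference was 0.84 (SE 0.25, edgeR adjusted p = 0.0894), and it passed without chronic unlesioned replicate 2 (1.04, edgeR adjusted p = 0.0103).

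*Sstr5*, at chr17:25626820-25634198, had 9 to 55 counts per library. It measured 0.488, 0.242 and 0.370 CPM in the chronic unlesioned and 0.137, 0.185 and 0.109 CPM in the chronic lesioned libraries, without overlap. It fell 2.53-fold on the lesioned side after chronic L-DOPA (log2 -1.34, SE 0.33, edgeR adjusted p = 0.0248). This call held in 8 of 13 alternatives and was lost when all 12 libraries shared a fit (edgeR adjusted p = 0.0873) and without chronic unlesioned replicate 1 or 3 or chronic lesioned replicate 1 or 3, at -1.33 to -1.09. In the acute lesioned group it measured 0.0683, 0.139 and 0.457 CPM, so that replicate 3 set the spread. With it the acute lesion effect was -0.26 (SE 0.50) and the change of the lesion effect -1.07 (SE 0.71), and without it these were -1.41 (edgeR adjusted p = 0.0383) and 0.07.

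The balance between the receptors was summarised per length in each library, which includes *Sstr2* and is a description. The 5 receptors summed to 1.76 ± 0.27 CPM per kb in the acute unlesioned, 1.43 ± 0.23 in the acute lesioned, 2.00 ± 0.55 in the chronic unlesioned and 15.6 ± 1.3 in the chronic lesioned group (SD, n = 3). *Sstr2* made up 30.9 ± 7.8% of that sum in the acute unlesioned and 41.9 ± 1.8% in the acute lesioned group, without overlap. Its share was 31.0 ± 10.3% in the chronic unlesioned and 84.5 ± 0.6% in the chronic lesioned group. *Sstr4* made up 44.6 ± 5.3% in the acute unlesioned and 28.8 ± 4.3% in the acute lesioned group, without overlap, and 11.7 ± 1.1% in the chronic lesioned group, where its own level was highest. Without *Sstr2* the sum of the other 4 was 0.835 ± 0.152 CPM per kb in the acute lesioned and 2.41 ± 0.13 in the chronic lesioned group, beside 1.20 ± 0.06 and 1.34 ± 0.18 in the unlesioned groups. The ratio of *Sst* to the receptor sum was 34.3 ± 5.4, 42.1 ± 7.0 and 36.2 ± 11.7 in the first 3 groups and 5.54 ± 0.91 in the chronic lesioned group.

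**Figure D4:**
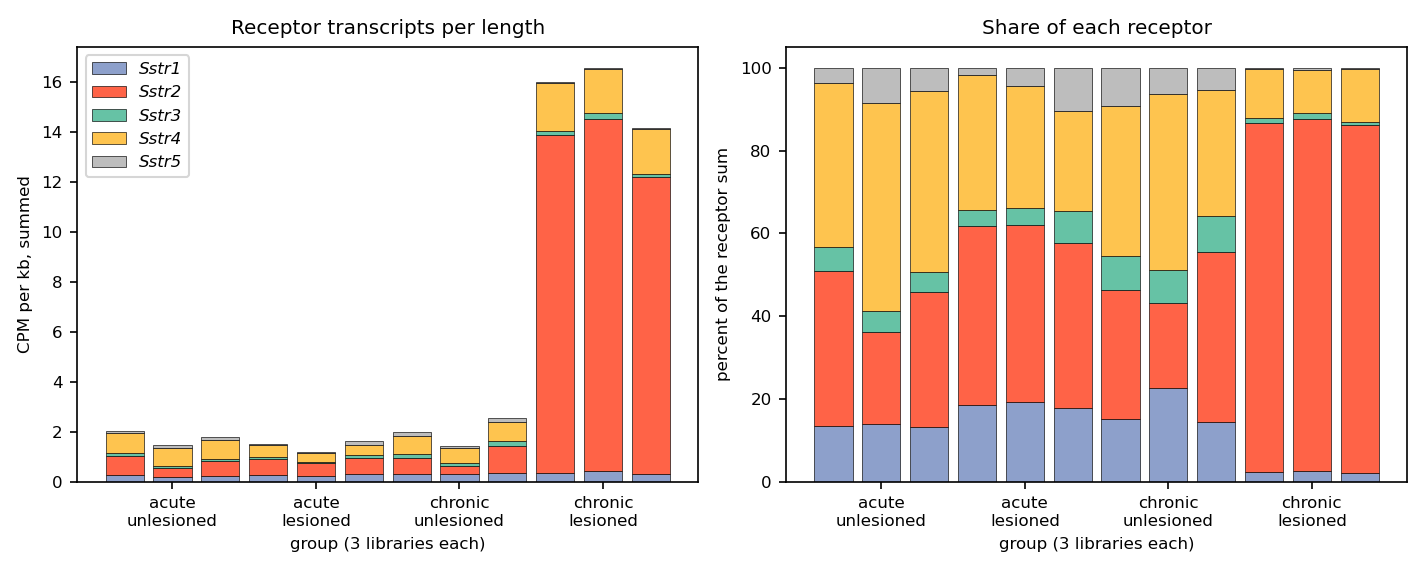
Summed receptor transcripts in CPM per kb (left) and the percent share of each receptor in that sum (right), with 1 bar per library and 3 libraries per group on the horizontal axes, coloured by receptor. The chronic lesioned libraries reach 14.2 to 16.6 CPM per kb with an *Sstr2* share of 84.0% to 85.1%.

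Genes of the proteins through which the receptors act were counted next. Of 13 transducers and effectors 1 rose and 2 fell on the lesioned side after chronic L-DOPA, with a median log2 fold change of -0.05 (-0.01 over all genes, of which 8.46% rose and 5.20% fell). With the replicate block 1 rose and 3 fell, with *Gnaz* added (-0.23, edgeR adjusted p = 0.0271), beside 12.8% and 11.4% of all genes. *Gnai3*, an inhibitory G-protein subunit, rose after both acute (log2 1.21, SE 0.07, edgeR adjusted p = 4.84e-07) and chronic L-DOPA (1.45, SE 0.09, edgeR adjusted p = 4.15e-06). It measured 6.42 to 7.63 CPM in both unlesioned groups and 15.9 to 21.4 CPM in both lesioned groups. The potassium channel subunits *Kcnj3* and *Kcnj9* fell after chronic L-DOPA, by 0.79 (SE 0.16) and 0.29 (SE 0.08). After acute L-DOPA 3 rose (*Gnai3*, *Gnai2* at 0.33 and the phosphatase *Ptpn6* at 0.60) and 2 fell (*Gnaz* at -0.32 and *Kcnj9* at -0.23), beside 8.16% and 7.16% of all genes. The interaction called 0 of the 13 by edgeR (2 at an unadjusted p under 0.05) and 1 by DESeq2, beside 5.10% of all genes by edgeR. With the replicate block *Gnai2* (-0.35) and *Kcnj3* (-0.73) passed the interaction, beside 13.4% of all genes.

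Among 7 adenylyl cyclases, the enzymes these receptors inhibit, *Adcy9* fell after chronic L-DOPA (log2 -0.52, SE 0.14, edgeR adjusted p = 0.0339) and the other 6 did not pass, beside 13.7% of all genes called. With the replicate block 1 cyclase rose and 3 fell, beside 24.2% of all genes called. After acute L-DOPA *Adcy6* rose by 0.30 (SE 0.08) and *Adcy9* fell by 0.35 (SE 0.06). Of 6 genes of receptor desensitization, *Rgs4*, a regulator of G-protein signaling, rose after acute (0.44, SE 0.08) and chronic L-DOPA (0.77, SE 0.11), and *Rgs9* fell after acute L-DOPA (-0.36, SE 0.11), so that 2 of 6 passed after acute L-DOPA, beside 15.3% of all genes, and 1 of 6 after chronic L-DOPA, beside 13.7%. With the replicate block *Arrb2* also rose after acute L-DOPA (0.20, edgeR adjusted p = 0.0454), beside 25.1% of all genes called. The interaction called 0 genes of either list by edgeR or DESeq2, with 3 cyclases and 2 desensitization genes at an unadjusted edgeR p under 0.05. The block called 3 cyclases and 1 desensitization gene, beside 13.4% of all genes.

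Part of the machinery that cuts and stores neuropeptide precursors rose in the lesioned striatum. Of 11 genes 7 rose and 1 fell after acute L-DOPA (median log2 fold change 0.31, against 0.02 over all genes, of which 8.16% rose and 7.16% fell), and 6 rose and 0 fell after chronic L-DOPA (median 0.25, against -0.01 over all genes, of which 8.46% rose and 5.20% fell). *Furin*, *Pam* and *Scg5* did not pass after acute L-DOPA, nor did *Chgb*, *Cpe*, *Pam*, *Pcsk2* and *Scg5* after chronic L-DOPA, with *Scg5* at -0.25 (SE 0.09). With the replicate block *Cpe* rose (0.21, edgeR adjusted p = 0.0233) and *Scg5* fell (-0.25, edgeR adjusted p = 0.0224) after chronic L-DOPA. They summed to 690 to 732 CPM in the acute unlesioned, 923 to 952 in the acute lesioned, 740 to 816 in the chronic unlesioned and 1142 to 1288 CPM in the chronic lesioned libraries. *Scg2* (secretogranin II) rose by 0.74 (SE 0.07) after acute and 1.80 (SE 0.12) after chronic L-DOPA, *Chga* (chromogranin A) by 0.65 (SE 0.08) and 1.79 (SE 0.11), and *Pcsk1*, a prohormone convertase, by 1.04 (SE 0.14) and 1.24 (SE 0.15). *Pcsk2*, the other convertase of neurons, fell by 0.33 (SE 0.07) after acute L-DOPA. The lesion effect was higher after chronic than after acute L-DOPA for 4 of the 11, beside 3.53% of all genes. They were *Chga* (1.15, SE 0.14), *Scg2* (1.06, SE 0.15), *Furin* (0.71, SE 0.12) and *Vgf* (0.54, SE 0.13), with edgeR adjusted p from 0.000252 to 0.0232. With the replicate block *Pcsk2* also passed this interaction (0.45, edgeR adjusted p = 0.00489), beside 7.30% of all genes that rose. These genes serve many neuropeptides, and their part in somatostatin levels was not tested.

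Markers of other cells were counted for the comparison of chronic and acute L-DOPA in the lesioned striatum, in which 4 members were higher, beside 12.5% of all genes that rose and 13.1% that fell. All 6 oligodendrocyte, 4 of 6 microglial, 3 of 5 astrocyte, 4 of 5 blood and 1 of 5 endothelial markers fell. Outside the lists of *Sst* interneurons and D1 neurons, 4 of 65 markers rose and 25 fell. The other falls were in D2 neurons (*Adora2a* -0.60, *Drd2* -0.46 and *Gpr6* -0.64), cholinergic interneurons (*Chat* -0.33 and *Slc5a7* -0.48), *Lhx8* (-0.65) and cortical *Fezf2* (-0.84). The rises were those of *Th* (2.76), *Pde10a* (0.39), and *Clic6* (1.06) and *Kl* (1.79) of the choroid plexus. Of the same lists, 12 of 65 markers rose and 10 fell in the acute lesion effect, beside 8.16% and 7.16% of all genes. In the chronic lesion effect 4 of 64 such markers rose and 3 fell, beside 8.46% and 5.20%. With the replicate block 24 rose and 17 fell in the acute lesion effect, beside 13.2% and 11.8% of all genes, and 8 rose and 18 fell in the chronic one, beside 12.8% and 11.4%. The genes named next passed without the block. *Gfap* of astrocytes (1.96, SE 0.24), *Th* from the list of other interneurons (2.39, SE 0.12), and *Penk* (1.12, SE 0.11) and *Sp9* (0.95, SE 0.10) of D2 medium spiny neurons rose. The cells in which *Th* rose were not measured. *Gpr52* of D2 neurons (-0.55, SE 0.13), *Slc5a7* of cholinergic interneurons (-0.35, SE 0.09) and *Ttr* of the choroid plexus (-8.34, SE 2.26) fell, the last at -1.30 (edgeR adjusted p = 0.178) without chronic unlesioned replicate 2. The part of these cells in the members' values was not tested.

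The genes whose pattern was most like that of a member were ranked by Pearson's r of log2(CPM + 0.5) over the 12 libraries, among 12796 genes with a mean of at least 1 CPM. These values are a description, since libraries of a group share their condition. *Sstr2* was most like *Syn2*, a synaptic vesicle protein (r = 0.99), *Inhba*, a subunit of activin (0.99), the clone 9530076L18 (0.98), the DNA demethylase *Tet3* (0.98) and the transcription factor *Bach1* (0.98). *Inhba* averaged 1.02, 1.52 and 1.16 CPM in the first 3 groups and 62.7 CPM in the chronic lesioned group, whereas *Syn2* averaged 48.4 to 50.8 and 65.1 CPM. *Sstr4* was most like *Zswim4*, *Pdyn* and *Rims4* (each 0.98), which like it were lowest in the acute lesioned and highest in the chronic lesioned group. *Sst* was most like the malate dehydrogenase *Mdh2* (0.98), *Uqcrc1* of the respiratory chain (0.98), *Atp5g1* of ATP synthase (0.97), *Sdhb* of succinate dehydrogenase (0.96) and *Nans* (0.96), and *Sstr1* was most like *Ak5* (0.89), *C130074G19Rik* (0.89) and *Peg3* (0.88). *Cort*, *Sstr3* and *Sstr5* averaged under 1 CPM and were not ranked.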

How the data were processed

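TruSeq libraries of 12 striatal samples were used. Per the study's methods, reads were mapped to mm9 with Genomatix software and compared with DESeq. The authors deposited, for 189660 transcripts, read counts and a length-normalized signal per sample; transcripts of a gene overlap, so their rows are not independent. The deposited signal was only compared with the counts. Authors' tables of 3 comparisons (log2 fold changes, p-values and adjusted p-values) were not used, nor were 36 per-sample columns in them. Rows naming no gene (296, 0.0485% of counts) were left out.

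Counts were tested as deposited with edgeR 4.0.16 (quasi-likelihood, TMM, filterByExpr at its defaults, R 4.3.3), on the 6 libraries of each comparison and on all 12 for the interaction, with Benjamini-Hochberg adjustment over all transcripts tested; the SE is the log2 fold change divided by the root of F. Background shares count 1 transcript per gene in that fit. DESeq2 1.42.0 was an alternative, with other scalings, no filter, gene sums, a shared fit, a replicate block and each library left out. The scripts were tested on simulated counts. The members and the gene and marker lists were chosen with earlier results of these data known. Genes named are the members, *Slc39a11*, per list up to 4 called genes with the largest change and 3 with the highest level, and the genes with the highest r (5 for *Sst* and *Sstr2*, 3 for the others); some list genes were named in addition after their values were seen, among them *Nos1*, *Lhx6*, *Chodl* and *Satb1*. Another marker of medium spiny neurons, besides those counted, is not reported here.

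Equally numbered lesioned and unlesioned libraries deviated together (correlation of deviations from the group means over 12796 genes 0.478, 0.445 and 0.390 in the acute and 0.519, 0.565 and 0.152 in the chronic groups). In the replicate block these numbers were therefore taken to pair them, from the data and not from the labels. The main tests and their p-values used no block and left this pairing out. Chronic unlesioned replicate 3 correlated as much with chronic lesioned replicate 1 (0.155) as with replicate 3, so support for that pair was weak. Replicates differed by more than sampling noise (chi-square per degree of freedom 5.51 to 19.8). Counts limit the precision of *Cort*, *Sstr3* and *Sstr5*. Floors cover counting error only.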

Additional observations from a re-analysis of the deposited data

Results flagged for a closer look

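The lesion effect differed between acute and chronic L-DOPA, by edgeR's interaction over 12 libraries, for the following genes. *Sstr2* gained 4.20 on the log2 scale, which is a description because it was known when the family was chosen, and *Sstr4* gained 2.25 (adjusted p = 1.42e-06, in the same direction in all 18 alternatives). Of the peptide storage genes *Chga* gained 1.15, *Scg2* 1.06, *Furin* 0.71 and *Vgf* 0.54. Of the markers of somatostatin interneurons *Npy* gained 0.65 and *Nos1* changed by -0.58. Of the D1 neuron markers *Pdyn* gained 3.26, *Drd1a* 0.98 and *Isl1* 0.92. Among the other markers *Th* gained 2.72, while *Gpr6* changed by -0.54, *Lhx8* by -0.84 and *Slc5a7* by -0.51. No test for a single outlying value was run within groups of 3; each library was left out in turn instead.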

How the results depend on the processing

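Over 464 refits of single members, 425 kept direction and side of the threshold, 14 lost and 5 gained a call, and 20 changed sign, all 20 among differences that did not pass. The refits of *Sstr2*, which carries no test, are in this tally and in the counts of members that follow. Nothing is therefore read from either. Without 1 library at a time, the members called numbered 1 to 2 for the acute lesion effect, 2 to 4 for the chronic lesion effect, 3 to 5 for chronic against acute L-DOPA in the lesioned and 0 to 1 in the unlesioned striatum, and 2 for the interaction. The other alternatives gave 1, 3 to 4, 3 to 5, 0 and 2 to 3. Calls over all transcripts moved as well when 1 library was left out. They numbered 9547 to 15328 for the acute lesion effect (16684 with all libraries) and 9137 to 14864 for the chronic one (15295). Chronic against acute L-DOPA gave 16025 to 36534 in the lesioned (29698) and 66 to 14377 in the unlesioned striatum (3366). The interaction gave 3794 to 9536 (5911). The acute lesion effect on *Sst* was -0.001 with 1 transcript per gene, -0.01 without a filter and -0.0041 with summed transcripts. Leaving out libraries gave sign changes within these ranges: the acute lesion effect of *Sst* (-0.07 to 0.07), *Sstr2* (-0.16 to 0.41) and *Sstr5* (-1.41 to 0.24); the chronic lesion effect of *Sstr1* (-0.01 to 0.25) and *Sstr3* (-0.12 to 0.36); chronic against acute L-DOPA of *Sstr5* in the lesioned (-1.08 to 0.54) and of *Cort* (-0.33 to 0.90) and *Sstr2* (-0.29 to 0.59) in the unlesioned striatum; and the interaction of *Sstr1* (-0.18 to 0.08) and *Sstr5* (-1.56 to 0.07). The causes were not tested.

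With the replicate block, the interaction called *Sst* as well (0.33, adjusted p = 0.0203), and over all transcripts it called 15879, against 5911 without the block. The block took the calls from 16684 to 28237 for the acute and from 15295 to 27505 for the chronic lesion effect. Between acute and chronic groups the numbers are shared only by name, and there *Sstr3* missed the threshold with the block in the lesioned striatum (1.20, adjusted p = 0.0582). It changed no other call of a member. The lists were counted with the block after the data had been seen, and it moved several of their counts, not all of which are given beside them. Outside the lists of *Sst* interneurons and D1 neurons, the interaction with the block called 5 of 67 markers higher and 13 lower, beside 7.30% and 6.13% of all genes. Without the block it called 1 higher and 3 lower, beside 3.53% and 1.56%.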
